A study of Callithrix jacchus with 20 samples.

Results

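KLF4, KLF5, ELF3, NLRP7, KHDC3L, PECAM1, ANPEP, THY1 and BTK were followed through the differentiation of marmoset induced pluripotent stem cells (cjiPSCs) towards primordial germ cell–like cells (cjPGCLCs). The 9 genes were taken by symbol from a table of 25102 genes, because they are used as markers of naive, formative or primed pluripotency. All 9 were found and all 9 passed the filter on low counts. The question was whether the levels that set cjiPSCs in cjPSCM apart from cjiPSCs in TESR were still different after pre-induction, and where the levels lay in sorted cells.

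Naive pluripotent cells correspond to the epiblast before implantation and primed cells to the epiblast after it, and formative cells lie between these states. The states are told apart by sets of genes rather than by the core factors OCT4, SOX2 and NANOG, which all of them share. Most marker sets were set up in mouse and human cells, and THY1 (CD90) is used in human cells as a marker of the primed state, whereas the other genes are linked to naive or naive-to-formative cells.

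All libraries were made from poly(A) RNA of the line DPZ_cjiPSC2, a single cjiPSC line that had been reprogrammed from fibroblasts with factors that included human KLF4. By PCR the study found that this line had lost the plasmids that carried these factors. The 10 conditions had 2 libraries each, labelled as biological replicates. The cjiPSCs were kept in TESR, a feeder-free medium for primed cells, or in cjPSCM, an expanded-potential type of medium to which TGFβ and FGF2 were added. Precursors of mesendoderm (pre-ME) were induced from both cultures with the GSK3 inhibitor CHIR, either with Activin A (+ ActA) or without it (− ActA). Sorted cells came only from cjPSCM cultures, so that no TESR counterpart was compared at this stage. They were collected at day 4 of embryoid body culture with BMP4, LIF, SCF and EGF, after pre-induction + ActA or − ActA, and the cells positive for both sort markers are called cjPGCLCs and the double-negative cells somatic cells. The titles of the samples name INTα6 and EpCAM as sort markers, other fields name CXCR4 and EpCAM, and the study's text names INTα6 and CXCR4. The labels give no sequencing batch or date. The sample numbers of the TESR pre-ME libraries do not continue those of the other libraries. These libraries had 18858625 to 22067099 counts on genes, against 8193936 to 17491325 in cjPSCM pre-ME. Whether they were made or sequenced apart is not stated. In comparisons of media in pre-ME, their interactions with stage, and TESR pre-ME against cjiPSCs, such a difference cannot be told apart from the condition.

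Between 4784964 and 22067099 reads were counted on genes per library, and 3 counts stood for 1.40 to 6.92 normalised counts, a limit that covers counting error only. The replicates of cjiPSCs in cjPSCM stood apart from the rest, with an SD of the log2 difference between replicates of 0.959 over genes, against 0.619 for cjiPSCs in TESR and 0.311 to 0.566 in the other 8 conditions. POU5F1, NANOG and SOX2 were detected in every condition, somatic cells included. None of these 3 was higher in cjPGCLCs than in somatic cells, and 1 was lower with ActA, where 183 of 15797 genes tested were lower. All 3 were lower in cjPGCLCs than in cjiPSCs in cjPSCM, where 25.1% of all genes were lower with ActA and 25.2% without it. The 4 markers of primordial germ cells (SOX17, TFAP2C, PRDM1 and NANOS3) and the 3 sort genes were higher in cjPGCLCs than in somatic cells under both protocols. Among all genes tested 3.68% were higher in cjPGCLCs with ActA and 6.67% without it. Of the 4 endoderm markers 3 were higher in cjPGCLCs under both protocols as well, with summed levels of 1591 to 2927 and 3759 to 6161 normalised counts in cjPGCLCs + ActA and − ActA against 722 to 1321 and 1839.5 to 2214 in the somatic cells. Against cjiPSCs in cjPSCM 1 of the 4 germ cell markers was higher and 1 lower in cjPGCLCs + ActA (25.9% and 25.1% of all genes). In cjPGCLCs − ActA 2 of them were higher and 1 lower (27.3% and 25.2%). The share of reads outside genes was 10.6% and 13.3% in cjiPSCs in TESR, 12.2% and 19.3% in cjiPSCs in cjPSCM and 17.2% to 23.2% in all pre-ME and sorted libraries, so that it moved with the stage, and its part in the differences between cjiPSCs and later stages, and between the cjiPSCs in both media, was not tested. Levels below are the authors' counts divided by a size factor of the library (normalised counts), and they are compared between conditions and not between genes, because transcript length was not taken into account. In RNA from whole cultures or sorted pools, fewer cells that express a gene and less RNA per cell cannot be told apart.

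In cjiPSCs 8 of the 9 genes were higher in cjPSCM than in TESR and none was lower, where 18.1% of the 15797 genes tested were higher (edgeR quasi-likelihood test, Benjamini-Hochberg adjusted p under 0.05). All 8 differences were beyond a log2 fold change of 2, the fold threshold of the study, as were 5.51% of the genes tested. The members were chosen with earlier results of these data known. The study had reported KLF4, KLF5 and ANPEP as up-regulated in cjPSCM in the same comparison. It had also named PECAM1, NLRP7 and the primed marker THY1 among the state genes that cjiPSCs in cjPSCM express. The count in cjiPSCs is therefore not independent of the choice of genes. In pre-ME − ActA 7 genes were higher in cells of cjPSCM origin, where 8.08% of all genes were, and in pre-ME + ActA 6 were higher, where 13.2% of all genes were. No member was lower in either. Of the 8 genes of the cjPSCM pattern, 6 thus stayed higher in pre-ME under both protocols, KLF5 under 1 and BTK under none. KLF4, NLRP7, KHDC3L, PECAM1, ANPEP and THY1 were higher in all 3 comparisons, KLF5 in cjiPSCs and in pre-ME − ActA, BTK in cjiPSCs and ELF3 in none. At day 4 NLRP7, KHDC3L, PECAM1, ANPEP and THY1 lay below cjiPSCs in cjPSCM in every sorted population, KLF4 lay above them in cjPGCLCs, and KLF5 lay below them in somatic cells. The plot of levels by library shows these patterns gene by gene.

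**Figure D1:**
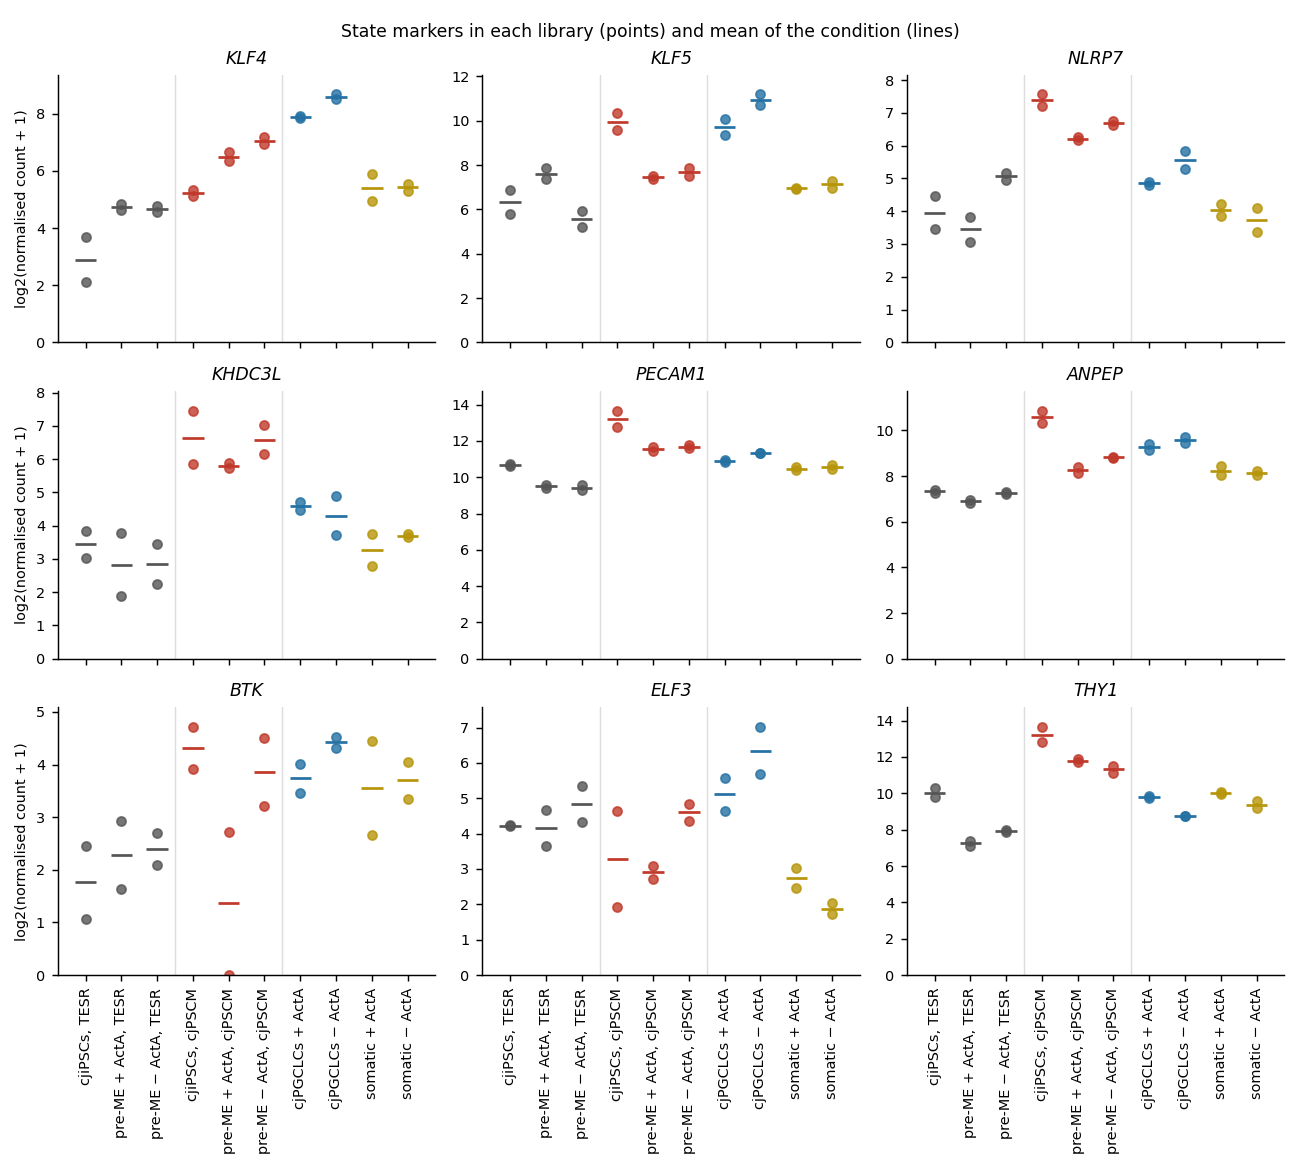
Levels of the 9 state markers in each of the 20 libraries, as log2(normalised count + 1) on the vertical axis (points, 1 per library; lines, mean of the 2 log2 values) over the 10 conditions, with TESR cultures in grey, cjPSCM cultures in red, cjPGCLCs in blue and somatic cells in yellow. KLF4 is highest in cjPGCLCs, whereas NLRP7, KHDC3L, PECAM1, ANPEP and THY1 have their highest mean in cjiPSCs in cjPSCM.

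KLF4, a Krüppel-like transcription factor of the naive network, rose with pre-induction in both media and was highest in cjPGCLCs. In cjiPSCs it was read at 3.31 and 11.9 normalised counts in TESR and at 39.6 and 34.1 in cjPSCM. In pre-ME + ActA the levels were 23.5 and 27.6 after TESR and 100.1 and 80.1 after cjPSCM. In pre-ME − ActA they were 26.3 and 22.5 after TESR and 121 and 144 after cjPSCM. In each of these pairs the libraries of cjPSCM origin were the higher ones and did not overlap with those of TESR origin. The differences between media were 2.60 ± 0.44 in cjiPSCs, 1.81 ± 0.30 in pre-ME + ActA and 2.44 ± 0.29 in pre-ME − ActA (log2 fold change ± standard error, adjusted p = 0.000203, 0.000396 and 1.97e-05). The value in cjiPSCs rested on 6 and 8 counts in TESR, and it changed with the omission of replicate 1 of the cjiPSCs in TESR (1.63, adjusted p = 0.018) or replicate 2 of the cjiPSCs in TESR (3.41, adjusted p = 6.14e-05).

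The log2 fold change of KLF4 in pre-ME over cjiPSCs was 1.30 (adjusted p = 0.00853) with ActA and 1.86 (adjusted p = 0.000232) without it in cjPSCM, and 2.09 (adjusted p = 0.00138) with ActA and 2.02 (adjusted p = 0.00163) without it in TESR. The increase in cjPSCM + ActA did not pass without replicate 1 of the cjPSCM pre-ME + ActA (1.11, adjusted p = 0.11). In TESR + ActA it did not pass without replicate 1 of the cjiPSCs in TESR (1.13, adjusted p = 0.0734), and in TESR − ActA not without replicate 1 of the cjiPSCs in TESR (1.05, adjusted p = 0.0892). At day 4 the cjPGCLCs had 229.9 and 243 normalised counts + ActA and 366 and 409.8 − ActA. The somatic cells had 58.4 and 29.8 with ActA and 46.1 and 38.7 without it. All cjPGCLC libraries thus lay above all libraries of any other condition, and the somatic cells overlapped with cjiPSCs in cjPSCM. KLF4 was higher in cjPGCLCs than in somatic cells with ActA (log2 fold change 2.45, standard error 0.31, adjusted p = 0.000171) and without it (log2 fold change 3.22, standard error 0.32, adjusted p = 6.17e-06). Against cjiPSCs in cjPSCM the differences were 2.68 (adjusted p = 3.54e-06) and 3.40 (adjusted p = 2.74e-07) in the cjPGCLCs + ActA and − ActA, and 0.23 (adjusted p = 0.593) and 0.18 (adjusted p = 0.693) in the somatic cells. By mean level KLF4 ran from 388 ± 30.9 normalised counts (SD, n = 2) in cjPGCLCs − ActA through cjPGCLCs + ActA, cjPSCM pre-ME − ActA, cjPSCM pre-ME + ActA, somatic cells + ActA, somatic cells − ActA, cjiPSCs in cjPSCM, TESR pre-ME + ActA, TESR pre-ME − ActA to 7.61 ± 6.09 in cjiPSCs in TESR. For KLF4, libraries of neighbours in this order overlapped from somatic cells + ActA to cjiPSCs in cjPSCM and between TESR pre-ME + ActA and TESR pre-ME − ActA.

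KLF5, a related factor of naive cells and of the trophectoderm, was high in cjiPSCs in cjPSCM, low in pre-ME and high again in cjPGCLCs. In cjiPSCs it had 54.5 and 118 normalised counts in TESR and 1290.5 and 768 in cjPSCM. In pre-ME of cjPSCM origin it had 167 and 183 with ActA and 180.4 and 229.8 without it. The pre-ME of TESR origin had 229 and 163 with ActA and 59.8 and 35.6 without it. With ActA the libraries of the media overlapped, and without it those of cjPSCM origin were higher. On the log2 scale the difference between media was 3.67 ± 0.37 (adjusted p = 1.05e-06) in cjiPSCs, 2.11 ± 0.36 (adjusted p = 0.00061) in pre-ME − ActA and -0.19 ± 0.34 (adjusted p = 0.712) in pre-ME + ActA.

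In cjPSCM KLF5 fell during pre-induction with ActA (log2 fold change -2.55, standard error 0.34, adjusted p = 9e-05) and without it (log2 fold change -2.31, standard error 0.33, adjusted p = 7.76e-05). In TESR it rose with ActA (1.30, adjusted p = 0.0106), a call that was lost without replicate 1 of the cjiPSCs in TESR (0.77, adjusted p = 0.182) or replicate 1 of the TESR pre-ME + ActA (1.04, adjusted p = 0.0914). Without ActA the value in TESR was -0.74 (adjusted p = 0.149), and it passed without replicate 1 of the cjiPSCs in TESR (-1.28, adjusted p = 0.039). At day 4 cjPGCLCs had 1086 and 653 normalised counts + ActA and 2332 and 1672 − ActA. Somatic cells had 120.4 and 124 with ActA and 157 and 125 without it. Every cjPGCLC library was higher than every somatic library, and the log2 fold change was 2.85 ± 0.36 with ActA and 3.86 ± 0.37 without it (adjusted p = 0.000178 and 4.66e-06). The cjPGCLCs + ActA overlapped with cjiPSCs in cjPSCM (-0.23, adjusted p = 0.563). The cjPGCLCs − ActA were higher than these cjiPSCs (0.98, adjusted p = 0.0147), although the difference did not pass without replicate 2 of the cjiPSCs in cjPSCM (0.63, adjusted p = 0.107) or replicate 1 of the cjPGCLCs − ActA (0.71, adjusted p = 0.142). The somatic cells were lower than these cjiPSCs with ActA (-3.07, adjusted p = 4.34e-06) and without it (-2.88, adjusted p = 8.11e-06). By mean level KLF5 ran from 2002 ± 467 normalised counts (SD, n = 2) in cjPGCLCs − ActA through cjiPSCs in cjPSCM, cjPGCLCs + ActA, cjPSCM pre-ME − ActA, TESR pre-ME + ActA, cjPSCM pre-ME + ActA, somatic cells − ActA, somatic cells + ActA, cjiPSCs in TESR to 47.7 ± 17.1 in TESR pre-ME − ActA. For KLF5, libraries of neighbours in this order overlapped between cjiPSCs in cjPSCM and cjPGCLCs + ActA, from cjPSCM pre-ME − ActA to cjPSCM pre-ME + ActA and between cjiPSCs in TESR and TESR pre-ME − ActA.

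ELF3, an ETS factor of epithelial cells, did not pass in any comparison of the media. In cjiPSCs it had 17.6 and 17.9 normalised counts in TESR and 2.83 and 23.7 in cjPSCM, so that the replicates in cjPSCM lay on both sides of those in TESR. The log2 fold change was -0.62 (adjusted p = 0.547), and ELF3 was called lower in cjPSCM without replicate 2 of the cjiPSCs in cjPSCM (-2.61, adjusted p = 0.0462). In pre-ME the differences between media were -1.42 (adjusted p = 0.166) with ActA and -0.33 (adjusted p = 0.775) without it. ELF3 set the sorted populations apart instead. The cjPGCLCs − ActA had 128 and 50.4 normalised counts and the cjPGCLCs + ActA 46.5 and 24.2. The somatic cells had 2.31 and 3.09 without ActA and 7.08 and 4.47 with it, and the libraries of cjPGCLCs and somatic cells did not overlap. With 1 and 2 counts the somatic cells − ActA were at the floor, and ELF3 was at least 15.5-fold higher in cjPGCLCs − ActA (adjusted p = 0.00157), or at least 8.73-fold higher without replicate 1 of these cjPGCLCs (adjusted p = 0.0257). With ActA the log2 fold change was 2.66 (adjusted p = 0.0847), and DESeq2 gave an adjusted p of 0.0465 for it. Against cjiPSCs in cjPSCM, ELF3 was higher in cjPGCLCs − ActA (log2 fold change 2.98, standard error 0.65, adjusted p = 0.00125) but did not pass in cjPGCLCs + ActA (1.64, adjusted p = 0.057). The first of these moved with the omission of replicate 1 of the cjiPSCs in cjPSCM (2.000, adjusted p = 0.0181), replicate 2 of the cjiPSCs in cjPSCM (4.98, adjusted p = 9.35e-05) or replicate 1 of the cjPGCLCs − ActA (2.10, adjusted p = 0.0374), and the second passed without replicate 2 of the cjiPSCs in cjPSCM (3.63, adjusted p = 0.00289) or replicate 2 of the cjPGCLCs + ActA (1.99, adjusted p = 0.0479). KLF4 and KLF5, and ELF3 without ActA, were thus higher in the same sort in which both germ cell markers and endoderm markers were higher. FOXA2, a defining endoderm factor, had 192 and 83.9 normalised counts in cjPGCLCs + ActA and 518 and 356 in cjPGCLCs − ActA, 0 in both libraries of somatic cells + ActA, and 4.61 and 0 in somatic cells − ActA. By immunofluorescence of embryoid body sections, not of sorted cells, the study detected FOXA2 protein only in a few cells positive for SOX17 alone. Its figure legend dates these sections later than day 4, the day of the sort. The part of germ cell-like or endoderm-like cells in the levels of the 3 factors was not tested. By mean level ELF3 ran from 89.4 ± 55.1 normalised counts (SD, n = 2) in cjPGCLCs − ActA through cjPGCLCs + ActA, TESR pre-ME − ActA, cjPSCM pre-ME − ActA, TESR pre-ME + ActA, cjiPSCs in TESR, cjiPSCs in cjPSCM, cjPSCM pre-ME + ActA, somatic cells + ActA to the lowest mean in somatic cells − ActA. For ELF3, libraries of neighbours in this order overlapped from cjPGCLCs + ActA to somatic cells + ActA.

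NLRP7 and KHDC3L are maternal-effect genes of the oocyte and early embryo, and their loss is known as a cause of recurrent hydatidiform moles in humans. Both were high in cjPSCM, stayed above TESR in pre-ME and were lower at day 4 than in cjiPSCs in cjPSCM. NLRP7 had 9.92 and 20.8 normalised counts in cjiPSCs in TESR and 147 and 188 in cjPSCM. The pre-ME of cjPSCM origin had 70.9 and 75.8 with ActA and 107 and 99.1 without it. After TESR the pre-ME had 13.1 and 7.43 with ActA and 35.1 and 29.9 without it. The libraries of cjPSCM origin were higher at each stage and did not overlap with those of TESR origin. The log2 fold change between media was 3.56 ± 0.35 in cjiPSCs, 2.81 ± 0.34 in pre-ME + ActA and 1.67 ± 0.30 in pre-ME − ActA (adjusted p = 8.35e-07, 2.2e-05 and 0.000858). In pre-ME of TESR origin NLRP7 was lower with ActA than without it (-1.65, adjusted p = 0.0047), a call lost without replicate 2 of the TESR pre-ME + ActA (-1.30, adjusted p = 0.0974).

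At day 4 NLRP7 had 28.7 and 27.0 normalised counts in cjPGCLCs + ActA and 56.2 and 37.8 in cjPGCLCs − ActA. In somatic cells it had 17.7 and 13.4 with ActA and 16.1 and 9.28 without it. All 8 sorted libraries lay below cjiPSCs in cjPSCM. The somatic cells overlapped with cjiPSCs in TESR, whereas the cjPGCLCs lay above cjiPSCs in TESR. The log2 fold change against cjiPSCs in cjPSCM was -2.55 (adjusted p = 1.05e-05) and -1.77 (adjusted p = 0.000167) in cjPGCLCs + ActA and − ActA, and -3.42 (adjusted p = 1.76e-06) and -3.76 (adjusted p = 1.23e-06) in the somatic cells. Between cjPGCLCs and somatic cells NLRP7 differed without ActA (1.99, adjusted p = 0.00552), but not without replicate 2 of the somatic cells − ActA (1.59, adjusted p = 0.139) or replicate 1 of the cjPGCLCs − ActA (1.63, adjusted p = 0.0911). With ActA this value was 0.86 (adjusted p = 0.332). By mean level NLRP7 ran from 168 ± 29.2 normalised counts (SD, n = 2) in cjiPSCs in cjPSCM through cjPSCM pre-ME − ActA, cjPSCM pre-ME + ActA, cjPGCLCs − ActA, TESR pre-ME − ActA, cjPGCLCs + ActA, somatic cells + ActA, cjiPSCs in TESR, somatic cells − ActA to 10.3 ± 4.03 in TESR pre-ME + ActA. For NLRP7, libraries of neighbours in this order overlapped from somatic cells + ActA to TESR pre-ME + ActA.

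KHDC3L had 7.16 and 13.4 normalised counts in cjiPSCs in TESR and 174 and 56.3 in cjPSCM. Pre-induction of cjPSCM cultures left 57.6 and 52.0 with ActA and 69.6 and 129 without it. For TESR cultures these levels were 12.6 and 2.65 with ActA and 9.88 and 3.74 without it. The cjiPSCs in cjPSCM thus overlapped with both groups of pre-ME of the same origin, and no library of cjPSCM origin before sorting overlapped with one of TESR origin. As log2 fold changes the media differed by 3.63 (adjusted p = 0.000425) in cjiPSCs, 2.83 (adjusted p = 0.00447) in pre-ME + ActA and 3.86 (adjusted p = 0.000422) in pre-ME − ActA. The first of these moved with the omission of replicate 1 of the cjiPSCs in cjPSCM (2.56, adjusted p = 0.00732) or replicate 2 of the cjiPSCs in cjPSCM (4.23, adjusted p = 1.24e-05), the second with that of replicate 1 of the TESR pre-ME + ActA (4.30, adjusted p = 0.00514) or replicate 2 of the TESR pre-ME + ActA (2.10, adjusted p = 0.0615) and the third with that of replicate 1 of the TESR pre-ME − ActA (4.69, adjusted p = 0.00285). From cjiPSCs to pre-ME of cjPSCM origin no change of KHDC3L passed (-1.08, adjusted p = 0.182 with ActA and -0.23, adjusted p = 0.755 without it), although it was lower in pre-ME + ActA without replicate 2 of the cjiPSCs in cjPSCM (-1.66, adjusted p = 0.0116). The sorted cells had between 5.96 and 28.4 normalised counts, below every library of cjPSCM cultures before sorting. Against cjiPSCs in cjPSCM the log2 fold change was -2.30 (adjusted p = 0.00426) and -2.63 (adjusted p = 0.00211) in cjPGCLCs + ActA and − ActA, and neither passed without replicate 1 of these cjiPSCs (-1.22, adjusted p = 0.126, and -1.57, adjusted p = 0.0578). In the somatic cells it was -3.69 (adjusted p = 0.000485) with ActA, which moved with the omission of replicate 1 of the cjiPSCs in cjPSCM (-2.62, adjusted p = 0.00972), replicate 2 of the cjiPSCs in cjPSCM (-4.30, adjusted p = 1.81e-05) or replicate 1 of the somatic cells + ActA (-4.28, adjusted p = 0.00408), and -3.28 (adjusted p = 0.00107) without it, which moved with the omission of replicate 1 of the cjiPSCs in cjPSCM (-2.20, adjusted p = 0.0227) or replicate 2 of the cjiPSCs in cjPSCM (-3.88, adjusted p = 4.34e-05). By mean level KHDC3L ran from 115 ± 83.4 normalised counts (SD, n = 2) in cjiPSCs in cjPSCM through cjPSCM pre-ME − ActA, cjPSCM pre-ME + ActA, cjPGCLCs + ActA, cjPGCLCs − ActA, somatic cells − ActA, cjiPSCs in TESR, somatic cells + ActA, TESR pre-ME + ActA to 6.81 ± 4.34 in TESR pre-ME − ActA. For KHDC3L, libraries of neighbours in this order overlapped between cjiPSCs in cjPSCM and cjPSCM pre-ME − ActA and from cjPGCLCs + ActA to TESR pre-ME − ActA.

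PECAM1 (CD31), an adhesion protein of endothelial cells and of naive pluripotent cells, was higher after cjPSCM at both stages and fell with pre-induction in both media. It had 1682 and 1565 normalised counts in cjiPSCs in TESR and 12988 and 7096 in cjPSCM. As pre-ME the cjPSCM cultures had 2839 and 3291 with ActA and 3121 and 3503 without it. The TESR cultures had 759 and 688 with ActA and 747 and 622 without it as pre-ME. No library of cjPSCM cultures before sorting overlapped with one of TESR cultures, even across stages. Between media the log2 fold change was 2.61 ± 0.21 in cjiPSCs, 2.07 ± 0.21 in pre-ME + ActA and 2.28 ± 0.21 in pre-ME − ActA (adjusted p = 1.11e-07, 3.34e-06 and 1.53e-06). The fall from cjiPSCs to pre-ME was -1.70 (adjusted p = 3.57e-05) and -1.57 (adjusted p = 3.39e-05) in cjPSCM with and without ActA, and -1.16 (adjusted p = 0.000472) and -1.24 (adjusted p = 0.000252) in TESR.

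The sorted cells had between 1352 and 2622 normalised counts of PECAM1. All lay below cjiPSCs in cjPSCM. The somatic cells − ActA overlapped with cjiPSCs in TESR, and the somatic cells + ActA lay below them. Relative to cjiPSCs in cjPSCM the log2 fold change of PECAM1 was -2.39 (adjusted p = 2.89e-07) and -1.93 (adjusted p = 1.89e-06) in cjPGCLCs + ActA and − ActA, and -2.81 (adjusted p = 5.1e-08) and -2.73 (adjusted p = 6.3e-08) in somatic cells. PECAM1 was higher in cjPGCLCs than in somatic cells without ActA (0.80, adjusted p = 0.0193), but the difference passed in none of the 4 fits that left out 1 library, which were those without replicate 1 of the somatic cells − ActA (0.71, adjusted p = 0.172), replicate 2 of the somatic cells − ActA (0.90, adjusted p = 0.0778), replicate 1 of the cjPGCLCs − ActA (0.79, adjusted p = 0.103) or replicate 2 of the cjPGCLCs − ActA (0.80, adjusted p = 0.083). The cjPGCLCs − ActA were also above cjiPSCs in TESR (0.69, adjusted p = 0.0102), a call lost without replicate 2 of the cjiPSCs in TESR (0.60, adjusted p = 0.0706). By mean level PECAM1 ran from 10042 ± 4167 normalised counts (SD, n = 2) in cjiPSCs in cjPSCM through cjPSCM pre-ME − ActA, cjPSCM pre-ME + ActA, cjPGCLCs − ActA, cjPGCLCs + ActA, cjiPSCs in TESR, somatic cells − ActA, somatic cells + ActA, TESR pre-ME + ActA to 685 ± 88.7 in TESR pre-ME − ActA. For PECAM1, libraries of neighbours in this order overlapped between cjPSCM pre-ME − ActA and cjPSCM pre-ME + ActA, from cjiPSCs in TESR to somatic cells + ActA and between TESR pre-ME + ActA and TESR pre-ME − ActA.

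Markers of endothelial cells moved with PECAM1 between the media. Of 6 such genes, CDH5, TIE1, TEK, ERG and ESAM were higher in cjiPSCs in cjPSCM than in TESR, whereas the log2 fold change of KDR was -0.48 (adjusted p = 0.0528). The median of the 6 was 3.83, against 0.00 over all genes tested. CDH5, the cadherin of endothelial junctions, had 671 and 619 normalised counts in TESR and 11857 and 3403 in cjPSCM. The replicate in cjPSCM with more CDH5 also had more PECAM1, KLF4, KLF5, KHDC3L, ANPEP and THY1, and less NLRP7, BTK and ELF3. In pre-ME all 6 genes were higher after cjPSCM with ActA and 5 without it. Among all genes tested 18.1% were higher in cjPSCM in cjiPSCs, 13.2% in pre-ME + ActA and 8.08% in pre-ME − ActA. The summed level of the 6 genes was 6339 to 7859.9 normalised counts in cjiPSCs in TESR and 12632 to 28421 in cjPSCM. KDR made up most of the sum in TESR, with 6555 and 5182 normalised counts, and had 4981 and 3558 in cjPSCM. In pre-ME of cjPSCM origin the sum of the 6 was 6462 to 6758 with ActA and 2751 to 3092 without it, against 1903 to 2318 and 814 to 901 after TESR. None of the 6 was at 0 in both libraries of a condition. In the sorted cells 3 of them were lower in cjPGCLCs − ActA than in somatic cells − ActA, where PECAM1 was higher. Of the 15797 genes tested 468 were lower in this comparison. The part of endothelial-like cells in the level of PECAM1 was not tested.

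**Figure D2:**
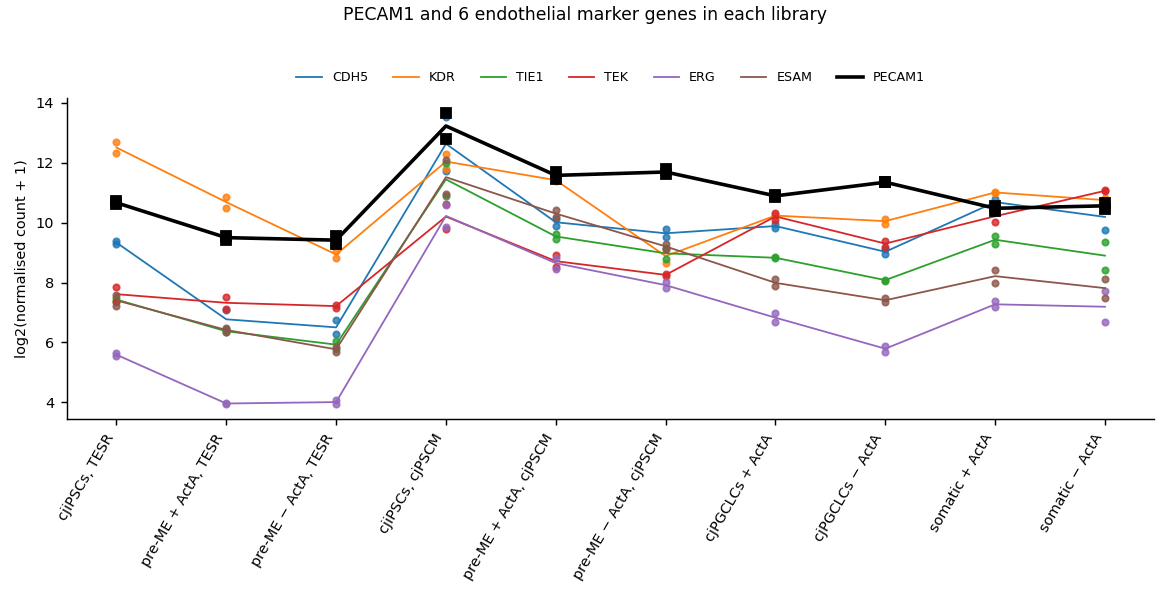
PECAM1 (black squares and line) and the endothelial markers CDH5, KDR, TIE1, TEK, ERG and ESAM (coloured) in the 10 conditions, as log2(normalised count + 1) on the vertical axis, with 1 point per library and lines through the means of the 2 log2 values. PECAM1, CDH5, TIE1, ERG and ESAM peak in cjiPSCs in cjPSCM, whereas KDR and TEK do not.

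ANPEP (CD13), a membrane aminopeptidase, kept a smaller difference between the media in pre-ME and an intermediate level in cjPGCLCs. It had 169 and 153 normalised counts in cjiPSCs in TESR and 1860.3 and 1269 in cjPSCM. In pre-ME of cjPSCM origin it had 279 and 337 with ActA and 459 and 442 without it. Pre-ME of TESR origin had 124 and 113 with ActA and 149 and 155 without it. Before sorting, every library of cjPSCM origin was higher than every library of TESR origin. The media differed by 3.25 ± 0.20 in cjiPSCs, 1.36 ± 0.19 in pre-ME + ActA and 1.57 ± 0.19 in pre-ME − ActA (log2 fold change ± standard error, adjusted p = 5.62e-09, 9.42e-05 and 1.82e-05). In cjPSCM ANPEP fell with pre-induction (-2.34, adjusted p = 7.59e-07 with ActA and -1.77, adjusted p = 3.96e-06 without it), and in TESR neither change passed (-0.45, adjusted p = 0.0862 and -0.08, adjusted p = 0.773).

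At day 4 ANPEP had 671 and 569 normalised counts in cjPGCLCs + ActA and 835 and 703 in cjPGCLCs − ActA. The somatic cells had 345 and 262 with ActA and 265 and 294 without it. The cjPGCLCs lay above the somatic cells and above pre-ME, but below cjiPSCs in cjPSCM. ANPEP was higher in cjPGCLCs than in somatic cells with ActA (log2 fold change 1.05, standard error 0.19, adjusted p = 0.00313) and without it (log2 fold change 1.48, standard error 0.19, adjusted p = 8.16e-05). The call with ActA was lost without replicate 2 of the somatic cells + ActA (0.86, adjusted p = 0.0988) or replicate 1 of the cjPGCLCs + ActA (0.92, adjusted p = 0.0613). All 4 sorted populations were above cjiPSCs in TESR, with log2 fold changes of 1.93 (adjusted p = 6.47e-07) and 2.25 (adjusted p = 1.21e-07) in cjPGCLCs + ActA and − ActA, and 0.89 (adjusted p = 0.00141) and 0.77 (adjusted p = 0.00446) in somatic cells. The last of these was lost without replicate 2 of the somatic cells − ActA (0.67, adjusted p = 0.0544). All 4 were lower than cjiPSCs in cjPSCM, with -1.32 (adjusted p = 2.21e-05) and -1.004 (adjusted p = 0.000223) in cjPGCLCs and -2.36 (adjusted p = 8.51e-08) and -2.48 (adjusted p = 5.7e-08) in somatic cells on the log2 scale. By mean level ANPEP ran from 1565 ± 418 normalised counts (SD, n = 2) in cjiPSCs in cjPSCM through cjPGCLCs − ActA, cjPGCLCs + ActA, cjPSCM pre-ME − ActA, cjPSCM pre-ME + ActA, somatic cells + ActA, somatic cells − ActA, cjiPSCs in TESR, TESR pre-ME − ActA to 118 ± 7.89 in TESR pre-ME + ActA. For ANPEP, libraries of neighbours in this order overlapped from cjPSCM pre-ME + ActA to somatic cells − ActA and between cjiPSCs in TESR and TESR pre-ME − ActA.

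THY1 (CD90), the primed marker of the set, was higher in cjPSCM, in the same direction as the genes linked to naive cells. It had 874 and 1243 normalised counts in cjiPSCs in TESR and 12832 and 7124 in cjPSCM. Pre-ME of cjPSCM origin had 3343 and 3838 with ActA and 2253 and 2888 without it. The levels in pre-ME of TESR origin were 168 and 135 with ActA and 249 and 237 without it. THY1 fell with pre-induction in both media, and before sorting every library of cjPSCM origin lay above every library of TESR origin. On the log2 scale the media differed by 3.23 ± 0.25 (adjusted p = 5.3e-08) in cjiPSCs, 4.55 ± 0.27 (adjusted p = 1.4e-08) in pre-ME + ActA and 3.40 ± 0.25 (adjusted p = 1.99e-07) in pre-ME − ActA. The fall was -1.46 (adjusted p = 0.000348) with ActA and -1.93 (adjusted p = 1.48e-05) without it in cjPSCM, and -2.78 (adjusted p = 8.2e-07) and -2.10 (adjusted p = 7.65e-06) in TESR.

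At day 4 THY1 had 856 and 933 normalised counts in cjPGCLCs + ActA and 424 and 424 in cjPGCLCs − ActA. The somatic cells had 1007 and 1069 with ActA and 583 and 758 without it. The cjPGCLCs − ActA were the lowest of the sorted populations, and the libraries of cjPGCLCs and somatic cells did not overlap under either protocol. The difference between the sorted populations did not pass, however, with ActA (-0.21, adjusted p = 0.787) or without it (-0.65, adjusted p = 0.113). The cjPGCLCs − ActA were lower than cjiPSCs in TESR (log2 fold change -1.31, standard error 0.24, adjusted p = 0.000272). Compared with cjiPSCs in cjPSCM THY1 had a log2 fold change of -3.47 (adjusted p = 2.94e-08) and -4.54 (adjusted p = 2.71e-09) in cjPGCLCs + ActA and − ActA, and -3.26 (adjusted p = 4.37e-08) and -3.89 (adjusted p = 9.93e-09) in somatic cells. THY1 also marks mesenchymal cells, and all 6 mesenchymal markers were lower in cjPGCLCs − ActA than in somatic cells − ActA, with summed levels of 4250.5 to 5873 and 15949 to 18509 normalised counts. In cjiPSCs 2 of the 6 (LUM and DCN) were higher and 2 (COL1A2 and PDGFRB) lower in cjPSCM, with sums of 2341 to 2871 against 3436 to 4606 in TESR. Compared with cjiPSCs in cjPSCM, where THY1 was lower in all 4 sorted populations, 6 of the 6 mesenchymal markers were higher in somatic cells + ActA, 5 in somatic cells − ActA, 5 in cjPGCLCs + ActA and 2 in cjPGCLCs − ActA, where 1 was lower. Of the 15797 genes tested 4103, 4138, 4086 and 4308 were higher in these populations, in this order, and 3979 were lower in cjPGCLCs − ActA. Between cjPGCLCs and somatic cells − ActA 468 were lower, and between media in cjiPSCs 2853 were higher and 2863 lower in cjPSCM. The summed level of the 6 mesenchymal markers was 16650 to 21848 normalised counts in somatic cells + ActA and 10197 to 13739 in cjPGCLCs + ActA. The part of mesenchymal cells in the level of THY1 was not tested. By mean level THY1 ran from 9978 ± 4036 normalised counts (SD, n = 2) in cjiPSCs in cjPSCM through cjPSCM pre-ME + ActA, cjPSCM pre-ME − ActA, cjiPSCs in TESR, somatic cells + ActA, cjPGCLCs + ActA, somatic cells − ActA, cjPGCLCs − ActA, TESR pre-ME − ActA to 152 ± 23.1 in TESR pre-ME + ActA. For THY1, libraries of neighbours in this order overlapped between cjiPSCs in TESR and somatic cells + ActA.

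BTK, a cytoplasmic tyrosine kinase of B-cell receptor signalling that has also been used as a marker of naive cells, was the member with the fewest reads, with 0 to 29 counts per library. In cjiPSCs it had 2 and 3 counts in TESR, which is at the floor, and 15 and 17 in cjPSCM. In normalised counts these were 1.10 and 4.47 in TESR and 14.1 and 25.2 in cjPSCM. The level in cjPSCM was at least 6.43-fold higher than in TESR, with an adjusted p of 0.0152. This call was lost without replicate 1 of the cjiPSCs in TESR (adjusted p = 0.227) or replicate 2 of the cjiPSCs in cjPSCM (adjusted p = 0.0507), where the fold was at least 4.40 and 4.62, respectively. In pre-ME of cjPSCM origin BTK had 0 and 5.62 normalised counts with ActA and 8.25 and 21.8 without it, and in pre-ME of TESR origin 6.57 and 2.12 with ActA and 5.49 and 3.28 without it. The difference between media did not pass in pre-ME (-0.97, adjusted p = 0.534 with ActA and 1.70, adjusted p = 0.144 without it). The sorted cells had between 5.31 and 22.02 normalised counts. The lowest of them, replicate 1 of somatic cells + ActA, had 3 counts, as did replicate 2 of the cjiPSCs in TESR, so that both were at the floor. Against cjiPSCs in TESR BTK was at least 4.11-fold higher in cjPGCLCs + ActA (adjusted p = 0.0333), at least 6.69-fold in cjPGCLCs − ActA (adjusted p = 0.00675) and at least 4.28-fold in somatic cells + ActA (adjusted p = 0.0389). The first call was lost without replicate 1 of the cjiPSCs in TESR (adjusted p = 0.316) or replicate 1 of the cjPGCLCs + ActA (adjusted p = 0.193), the second without replicate 1 of the cjiPSCs in TESR (adjusted p = 0.13) and the third without replicate 1 of the cjiPSCs in TESR (adjusted p = 0.317) or replicate 2 of the somatic cells + ActA (adjusted p = 0.531). In these 5 fits the fold was at least 2.82 and 3.25 for the first, 4.58 for the second and 2.93 and 1.74 for the third. Of 6 blood cell markers, PTPRC and GATA1 were at 0 in cjiPSCs in both media, and 2 of the 4 that passed the filter, CD34 and RUNX1, were higher in cjPSCM, where 18.1% of all genes tested were higher. The summed level of the blood cell markers was 456 to 474 normalised counts in TESR and 883 to 2606 in cjPSCM. Most of this sum was CD34, with 430 and 421 in TESR and 2325 and 691 in cjPSCM. The replicate in cjPSCM with more CD34 had less BTK (14.1 against 25.2). The part of blood-like cells in the level of BTK was not tested. By mean level BTK ran from 20.5 ± 2.20 normalised counts (SD, n = 2) in cjPGCLCs − ActA through cjiPSCs in cjPSCM, cjPSCM pre-ME − ActA, somatic cells + ActA, cjPGCLCs + ActA, somatic cells − ActA, TESR pre-ME − ActA, TESR pre-ME + ActA, cjPSCM pre-ME + ActA to 2.78 ± 2.38 in cjiPSCs in TESR. For BTK, libraries of neighbours in this order overlapped from cjPGCLCs − ActA to somatic cells − ActA and from TESR pre-ME − ActA to cjiPSCs in TESR.

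From cjiPSCs to pre-ME of cjPSCM origin more members were lower than higher. With ActA 1 gene, KLF4, was higher and 6 were lower, where 7.42% of all genes were higher and 10.3% lower. Without ActA KLF4 was higher and 4 genes were lower (17.9% and 20.1% of all genes). KLF5, PECAM1, ANPEP and THY1 were lower under both protocols. NLRP7 and BTK passed with ActA and not without it, and the direct comparison of pre-ME + ActA and − ActA passed for neither (-0.51, adjusted p = 0.224 for NLRP7 and -2.67, adjusted p = 0.0586 for BTK, where BTK passed without replicate 2 of the cjPSCM pre-ME + ActA, adjusted p = 0.0281, or replicate 1 of the cjPSCM pre-ME − ActA, adjusted p = 0.0422). NLRP7 had -1.17 (adjusted p = 0.0112) with ActA and -0.66 (adjusted p = 0.0758) without it, and the call with ActA was lost without replicate 1 of the cjPSCM pre-ME + ActA (-1.13, adjusted p = 0.111) or replicate 2 of the cjPSCM pre-ME + ActA (-1.21, adjusted p = 0.0631). BTK had -3.05 (adjusted p = 0.0372) with ActA, and this was lost without replicate 1 of the cjiPSCs in cjPSCM (-3.45, adjusted p = 0.0543), replicate 2 of the cjiPSCs in cjPSCM (-2.66, adjusted p = 0.0665) or replicate 1 of the cjPSCM pre-ME + ActA (-1.73, adjusted p = 0.344). In TESR 2 genes were higher and 2 lower both with ActA (17.3% and 17.1% of all genes) and without it (17.4% and 19.2%). KLF4 was among the higher and PECAM1 and THY1 were the lower ones under both protocols. NLRP7 was higher in TESR pre-ME − ActA than in the cjiPSCs (1.24, adjusted p = 0.0129), but not without replicate 1 of the cjiPSCs in TESR (0.67, adjusted p = 0.23) or replicate 1 of the TESR pre-ME − ActA (1.10, adjusted p = 0.0736).

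Whether the difference between media changed with pre-induction was tested as an interaction, that is, as the difference between media in pre-ME minus that in cjiPSCs. With ActA 3 of the 9 genes passed, where 6.20% of all genes did. The difference between media was smaller in pre-ME + ActA for KLF5 (log2 fold change -3.86, standard error 0.50, adjusted p = 0.000266) and ANPEP (log2 fold change -1.89, standard error 0.27, adjusted p = 0.000548), and larger for THY1 (log2 fold change 1.32, standard error 0.33, adjusted p = 0.025). Without ActA 2 genes passed, where 6.54% of all genes did, and the difference was smaller in pre-ME − ActA for NLRP7 (log2 fold change -1.90, standard error 0.46, adjusted p = 0.0195) and ANPEP (log2 fold change -1.68, standard error 0.26, adjusted p = 0.00127). Of these 5 calls, the one of THY1 was lost without replicate 2 of the cjiPSCs in TESR (1.07, adjusted p = 0.0998), replicate 1 of the cjPSCM pre-ME + ActA (1.40, adjusted p = 0.0627), replicate 2 of the cjPSCM pre-ME + ActA (1.22, adjusted p = 0.0872), replicate 1 of the TESR pre-ME + ActA (1.48, adjusted p = 0.0547) or replicate 2 of the TESR pre-ME + ActA (1.17, adjusted p = 0.114), and the one of NLRP7 without replicate 1 of the cjiPSCs in TESR (-1.33, adjusted p = 0.152), replicate 1 of the cjPSCM pre-ME − ActA (-1.93, adjusted p = 0.0509), replicate 2 of the cjPSCM pre-ME − ActA (-1.83, adjusted p = 0.0755), replicate 1 of the TESR pre-ME − ActA (-1.75, adjusted p = 0.0862) or replicate 2 of the TESR pre-ME − ActA (-1.99, adjusted p = 0.0511). KLF5 without ActA had -1.56 (adjusted p = 0.0778) and passed without replicate 2 of the cjiPSCs in TESR (-2.09, adjusted p = 0.0176) or replicate 2 of the cjiPSCs in cjPSCM (-1.93, adjusted p = 0.0129). PECAM1 had -0.54 (adjusted p = 0.302) with ActA and -0.33 (adjusted p = 0.521) without it, and both passed without replicate 2 of the cjiPSCs in cjPSCM (-0.93, adjusted p = 0.00292, and -0.72, adjusted p = 0.0179). For KLF4 the interaction was -0.79 (adjusted p = 0.445) and -0.16 (adjusted p = 0.889), and for KHDC3L -0.80 (adjusted p = 0.686) and 0.24 (adjusted p = 0.914), with standard errors of 0.54, 0.50, 0.96 and 0.93.

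**Figure D3:**
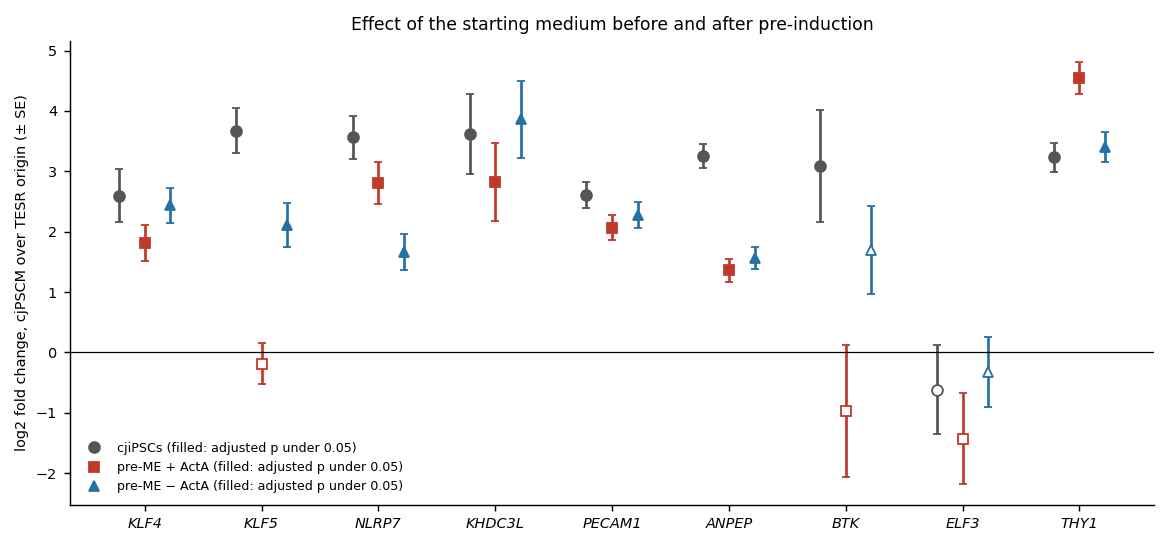
Log2 fold change between cells of cjPSCM and TESR origin (vertical axis, positive where cjPSCM is higher) of the 9 genes in cjiPSCs, pre-ME + ActA and pre-ME − ActA, with bars of 1 standard error and filled symbols where the adjusted p was under 0.05. KLF4, NLRP7, KHDC3L, PECAM1, ANPEP and THY1 are filled in all 3 comparisons, and KLF5 lies near 0 in pre-ME + ActA.

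The effect of ActA was compared within pre-ME. In pre-ME of cjPSCM origin ANPEP alone passed and was lower with ActA (log2 fold change -0.57, standard error 0.18, adjusted p = 0.0372), where 9.54% of all genes were lower. It did not pass without replicate 1 of the cjPSCM pre-ME + ActA (-0.44, adjusted p = 0.293), replicate 2 of the cjPSCM pre-ME + ActA (-0.70, adjusted p = 0.0661), replicate 1 of the cjPSCM pre-ME − ActA (-0.57, adjusted p = 0.108) or replicate 2 of the cjPSCM pre-ME − ActA (-0.61, adjusted p = 0.114). In pre-ME of TESR origin 2 of the 9 passed, 1 in each direction, where 5.63% of all genes were higher with ActA and 3.20% lower. KLF5 was higher with ActA (log2 fold change 2.05, standard error 0.36, adjusted p = 0.00121) and NLRP7 lower, as given above. The effect of ActA was not shown to differ between the media for any of the 9 genes by edgeR, where 0.399% of all genes passed. At an unadjusted p under 0.05 the count was 3 (KLF5, NLRP7 and THY1), and DESeq2 called 2 (KLF5 and THY1) and gave no adjusted p for NLRP7. The nearest was KLF5 (-2.29, adjusted p = 0.0562), for which the adjusted p was 0.000967 by DESeq2 and 0.0421 with a replicate block.

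In the sorted cells 3 of the 9 genes were higher in cjPGCLCs than in somatic cells with ActA, where 3.68% of all genes were, and 6 without it, where 6.67% of all genes were. None was lower. KLF4, KLF5 and ANPEP passed under both protocols, and ELF3, NLRP7 and PECAM1 passed without ActA. The test of the difference between the protocols passed for 0 of the 9 genes by edgeR and by DESeq2, and for 0 at an unadjusted p under 0.05, where 0.0633% of all genes passed.

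Against cjiPSCs in cjPSCM 1 gene was higher and 5 were lower in cjPGCLCs + ActA, where 25.9% and 25.1% of all genes were higher and lower. In cjPGCLCs − ActA 3 genes were higher and 5 lower (27.3% and 25.2% of all genes). In the somatic cells 6 genes were lower both with ActA (27.9% of all genes) and without it (28.0%), and none was higher, where 4103 and 4138 of the 15797 genes tested were higher. The 6 genes were KLF5, NLRP7, KHDC3L, PECAM1, ANPEP and THY1. Against cjiPSCs in TESR the cjPGCLCs + ActA had 5 higher genes and no lower one (27.4% of all genes higher), and the cjPGCLCs − ActA had 7 higher genes and a lower one, THY1 (27.2% higher and 25.0% lower). The somatic cells + ActA had 3 higher genes (25.2%), and the somatic cells − ActA had 2 higher (24.6%) and a lower one, THY1 (26.0%). The comparisons share the libraries of the cjiPSCs. Markers of amnion and surface ectoderm moved with the stage, as all 5 of the 6 listed genes that were in the table (GATA3, TFAP2A, ISL1, VTCN1 and GABRP) were higher in each of the 4 sorted populations than in cjiPSCs of either medium, with summed levels of 4861 to 7580 normalised counts against 440.3 to 1365. Between cjPGCLCs and somatic cells GABRP passed without ActA (higher in cjPGCLCs). The part of these genes' cell types in the levels of the members was not tested. KLF4 and ANPEP were higher than in TESR in all 4 sorted populations, KLF5 and NLRP7 in both cjPGCLC populations, and BTK in these and in somatic cells + ActA. For KLF4 the log2 fold change was 5.28 (adjusted p = 1.89e-08) and 5.997 (adjusted p = 3.81e-09) in cjPGCLCs + ActA and − ActA, and 2.83 (adjusted p = 7.23e-05) and 2.78 (adjusted p = 0.000118) in somatic cells. Without replicate 1 of the cjiPSCs in TESR these were 4.31, 5.02, 1.86 and 1.80, and without replicate 2 they were 6.08, 6.80, 3.63 and 3.57. For KLF5 it was 3.45 (adjusted p = 1.31e-06) and 4.65 (adjusted p = 6.52e-08) in the cjPGCLCs. NLRP7 had 1.79 in cjPGCLCs − ActA, and 1.22 to 2.24 with 1 library left out. Some smaller differences rested on single libraries. NLRP7 in cjPGCLCs + ActA (1.01, adjusted p = 0.0365) did not pass without replicate 1 of the cjiPSCs in TESR (0.43, adjusted p = 0.43), replicate 1 of the cjPGCLCs + ActA (0.95, adjusted p = 0.147) or replicate 2 of the cjPGCLCs + ActA (1.03, adjusted p = 0.0815). ELF3 in cjPGCLCs − ActA (2.37, adjusted p = 0.00334) did not pass without replicate 1 of the cjPGCLCs − ActA (1.48, adjusted p = 0.107). THY1 in somatic cells − ActA (-0.66, adjusted p = 0.0293) did not pass without replicate 2 of the cjiPSCs in TESR (-0.43, adjusted p = 0.217) or replicate 1 of the somatic cells − ActA (-0.50, adjusted p = 0.196).

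**Figure D4:**
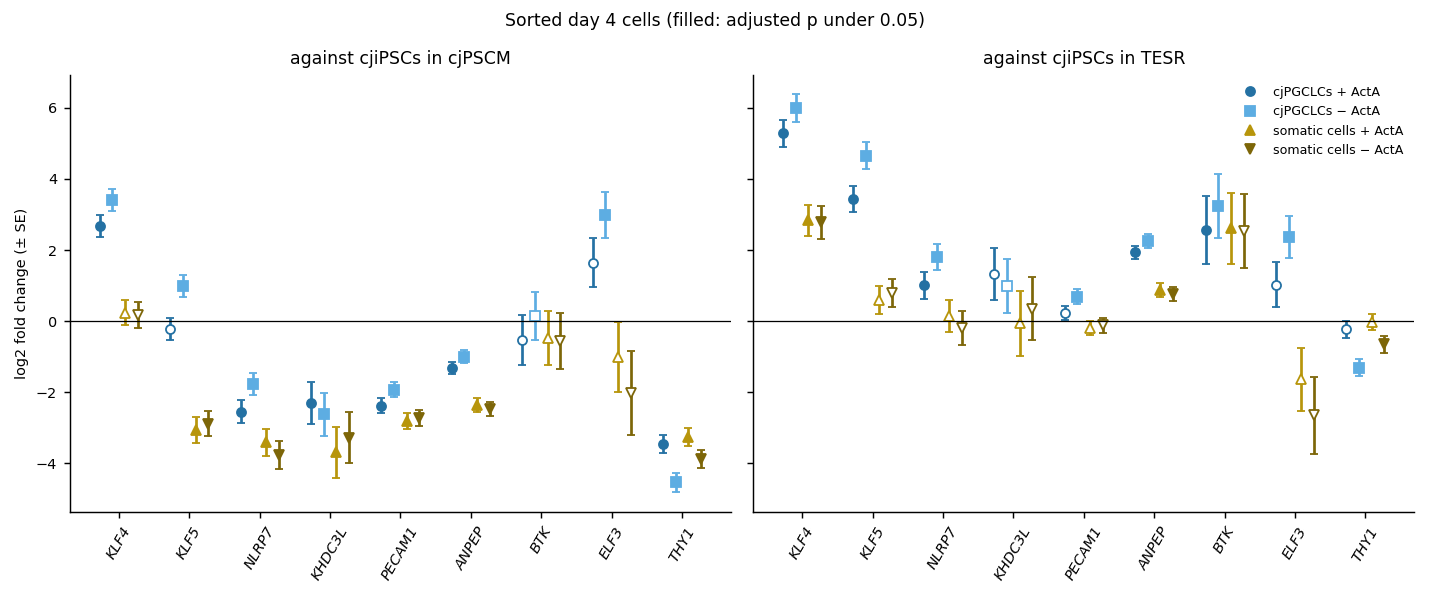
Log2 fold changes of the 9 genes in sorted day 4 cells against cjiPSCs in cjPSCM (left) and against cjiPSCs in TESR (right), with bars of 1 standard error and filled symbols where the adjusted p was under 0.05 (blue, cjPGCLCs; yellow and brown, somatic cells). NLRP7, KHDC3L, PECAM1, ANPEP and THY1 lie below 0 in all 4 populations on the left, and KLF4, KLF5, ANPEP and BTK lie above 0 in all 4 on the right, where KLF4 and ANPEP are filled in each.

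Other genes of the same states were counted in the comparisons of the media. Of 22 naive genes, 1 of which (TFAP2C) is also a germ cell marker above, 19 were in the table and 11 passed the filter on low counts. The list was chosen with earlier results of these data known, and the study had reported DPPA3, TFAP2C and GDF3 as up-regulated in cjPSCM. In cjiPSCs 6 of the 11 were higher in cjPSCM and none lower, with a median log2 fold change of 1.04 against 0.00 over all genes tested. The log2 fold change was 4.88 ± 0.32 (adjusted p = 1.14e-08) for TBX3, a T-box factor, and 3.65 ± 0.44 (adjusted p = 8.1e-06) for GDF3, a ligand of the TGFβ family. In pre-ME 4 were higher with ActA (median 0.77 against -0.02) and 5 without it (median 1.69 against -0.01), again with none lower. The share of all genes tested that were higher in cjPSCM was 18.1% in cjiPSCs, 13.2% in pre-ME + ActA and 8.08% in pre-ME − ActA. TBX3 and KLF2, a further Krüppel-like factor, had 3.36 (adjusted p = 6.47e-07) and 3.005 (adjusted p = 6.62e-06) with ActA. Without ActA KLF2 had 2.79 (adjusted p = 2.78e-05) and GDF3 3.07 (adjusted p = 0.000183). In cjiPSCs the value of KLF2 was -0.70 (adjusted p = 0.0787).

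For the formative and primed lists more genes were lower than higher in cjPSCM in cjiPSCs and in pre-ME − ActA, and the counts in pre-ME + ActA were split. Among all genes tested 18.1% were lower in cjPSCM in cjiPSCs, 14.2% in pre-ME + ActA and 5.96% in pre-ME − ActA. Of 10 formative genes 1 was higher and 5 were lower in cjiPSCs in cjPSCM (median -0.58), 1 higher and 1 lower in pre-ME + ActA (median -0.23), and 1 higher and 4 lower in pre-ME − ActA (median -0.57). OTX2, a homeobox factor of formative and primed cells, was the gene that was higher in cjiPSCs (log2 fold change 4.22, standard error 0.72, adjusted p = 0.000232) and in pre-ME − ActA (log2 fold change 3.98, standard error 0.50, adjusted p = 3.32e-05), and TCF7L1 was higher in pre-ME + ActA (0.83, adjusted p = 0.00645). ETV5, an ETS factor downstream of FGF signalling, was lower in all 3 comparisons (-2.22, adjusted p = 6.96e-06, -1.56, adjusted p = 0.000453 and -2.66, adjusted p = 1.27e-05), SOX3 in cjiPSCs (-2.90, adjusted p = 9.3e-05) and ETV4 in pre-ME − ActA (-1.76, adjusted p = 0.000219). Of 12 primed genes 1 was higher and 5 were lower in cjiPSCs (median -0.59), 2 higher and 3 lower in pre-ME + ActA (median -0.45), and 3 lower and none higher in pre-ME − ActA (median -0.19). VIM was higher in cjiPSCs (1.06, adjusted p = 0.00138) and in pre-ME + ActA (1.11, adjusted p = 0.00192), and B3GAT1 in pre-ME + ActA (1.76, adjusted p = 0.0135). CDH2, the neural cadherin, was lower in all 3 comparisons (-1.54, adjusted p = 3.63e-06, -1.15, adjusted p = 0.000149 and -0.77, adjusted p = 0.00465), and DUSP6, a feedback phosphatase of ERK signalling, was lower in cjiPSCs (-1.68, adjusted p = 5.7e-07). SOX11 was lower in pre-ME + ActA (-0.68, adjusted p = 0.0309) and in pre-ME − ActA (-0.99, adjusted p = 0.00519). Several of these values rested on single libraries. Without replicate 1 of the cjiPSCs in cjPSCM GDF3 moved from 3.65 to 2.60, and SOX3 to -2.01, whereas without replicate 2 SOX3 moved to -4.44, all still called. ETV5 in pre-ME − ActA moved to -3.46 without replicate 1 of the cjPSCM pre-ME − ActA. In pre-ME + ActA the call of TCF7L1 was lost without replicate 1 of the cjPSCM pre-ME (adjusted p = 0.075) or replicate 2 of the TESR pre-ME (0.0599), that of B3GAT1 without replicate 1 of the cjPSCM pre-ME (log2 fold change 1.02, adjusted p = 0.358) or either replicate of the TESR pre-ME (0.0891 and 0.0719), and that of SOX11 without replicate 2 of the cjPSCM pre-ME (0.237) or either replicate of the TESR pre-ME (0.0513 and 0.197). In pre-ME − ActA the calls of CDH2 and SOX11 were lost without replicate 2 of the cjPSCM pre-ME (adjusted p = 0.0721 and 0.0925) or replicate 2 of the TESR pre-ME (0.0693 and 0.0673).

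**Figure D5:**
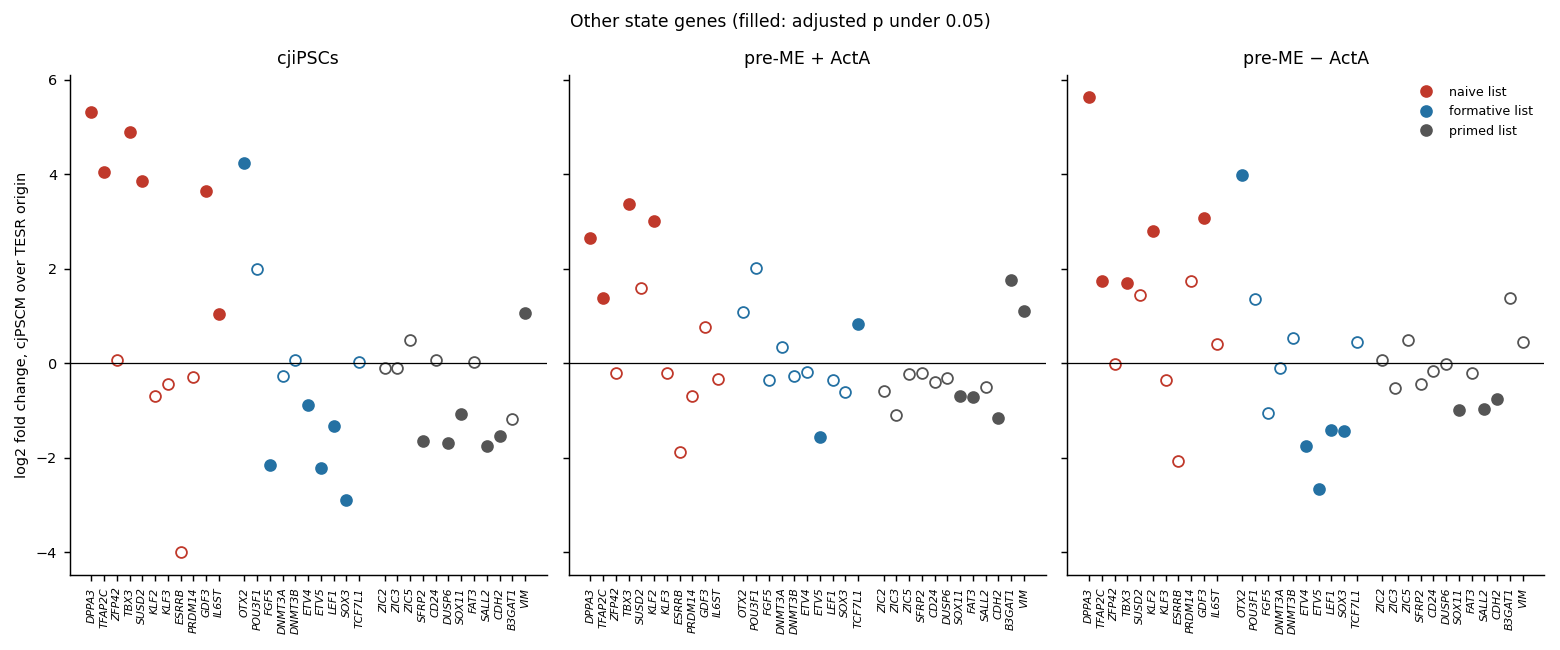
Log2 fold change between cells of cjPSCM and TESR origin (vertical axis) of the tested genes of a naive (red), a formative (blue) and a primed list (grey) in cjiPSCs, pre-ME + ActA and pre-ME − ActA, with 1 point per gene, filled where the adjusted p was under 0.05. All filled naive genes lie above 0, and OTX2 lies above 0 among formative genes that are mostly below it.

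Over the 10 conditions the members formed no single pattern. NLRP7, KHDC3L and PECAM1 followed each other, with Pearson's r of log2 levels over the 10 condition means of 0.899, 0.820 and 0.903. THY1 went with PECAM1 (0.902) and KHDC3L (0.868), and ANPEP with PECAM1 (0.870) and KLF5 (0.831). KLF4 and THY1 had an r of 0.0953, and ELF3 and THY1 one of -0.355. These values are descriptions, and the condition means share media, protocols and library depth. In 328 of 405 pairs of conditions, taken over the 9 genes, the libraries did not overlap, or 81.0%, where 70.1% of such pairs did not over all genes tested.

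The genes with a symbol whose condition means were most like those of KLF4 were OTX2 (r = 0.944), VPS13C and BAIAP3. For KLF5 these were MERTK (r = 0.973), SLC23A2 and PARP14. ELF3 was followed most closely by TJP3 (r = 0.957), B3GAT2 and HINT3. For NLRP7 the nearest genes were TOX (r = 0.967), PHLDB3 and CCR10, and for KHDC3L they were ZSWIM3 (r = 0.970), FXYD5 and PHF7. PECAM1 was closest to ABCG1 (r = 0.979), SH3KBP1 and DEPTOR. ANPEP was closest to GGCX (r = 0.981), TOB1 and BCL3, and THY1 to SPNS2 (r = 0.979), PLEKHH3 and CAVIN2. BTK, with few counts, was closest to TWF1 (r = 0.919), FAM135A and SMPDL3A. All r are over 10 conditions, and with a pseudocount of 10 in place of 1 the nearest 3 genes of each member included 17 of these 27.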

How the data were processed

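Poly(A) RNA-seq of 20 libraries from 10 conditions was analysed, grouped by the sample labels. The authors used FastQC 0.11.8, mapped the reads with STAR 2.7.0a to calJac4, counted them with HTSeq-count 0.11 and deposited raw counts per gene. They also deposited a normalised signal, which is the count divided by DESeq2's size factor. The annotation release and the strand setting are not given in the sources used here, so overlapping or antisense genes can share reads. Reads outside genes (10.6% to 23.2%) and ambiguous reads (0.268% to 0.350%) were left out.

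For the tests, edgeR 4.0.16 was run on the raw counts under R 4.3.3 (TMM, quasi-likelihood F-test, 1 coefficient per condition, 10 residual degrees of freedom, common dispersion 0.0203). The low-count filter left 15797 of 25102 genes, and p-values were adjusted by Benjamini-Hochberg over these in each of 19 comparisons and 4 interactions. A gene was called at an adjusted p under 0.05, and the standard error is the size of the log2 fold change divided by the square root of F. If neither library of a group exceeded 3 counts, the fold is a bound against that number.

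Named genes were the 9 members, the 3 genes nearest to each by Pearson's r of log2(normalised count + 1), the 2 genes with the smallest adjusted p in each direction per list and comparison of media, and identity, sort and cell type markers. Members and lists were chosen with earlier results of these data known. The 19 comparisons and 4 interactions were repeated with DESeq2 1.42.0, DESeq2's size factors, no filter, a replicate block and each library left out. The correlations were repeated with a pseudocount of 10 and the levels with TMM-scaled CPM. Tables and plots used Python 3.11.15, pandas 2.3.3 and matplotlib 3.10.9. Depth was 4784964 to 22067099 counts per library (median 11599813). With 2 libraries per condition, p-values measure the spread between these cultures of 1 line.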

Additional observations from a re-analysis of the deposited data

Results flagged for a closer look

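In 5 cases the difference between media in pre-ME was not the same as in cjiPSCs, by the interaction test of edgeR. With ActA KLF5 (log2 fold change -3.86, standard error 0.50, adjusted p = 0.000266) and ANPEP (log2 fold change -1.89, standard error 0.27, adjusted p = 0.000548) had a smaller difference between media in pre-ME than in cjiPSCs, and THY1 (log2 fold change 1.32, standard error 0.33, adjusted p = 0.025) had a larger one. Without ActA NLRP7 (log2 fold change -1.90, standard error 0.46, adjusted p = 0.0195) and ANPEP (log2 fold change -1.68, standard error 0.26, adjusted p = 0.00127) had a smaller one. The calls of KLF5 and of ANPEP held with any 1 library left out, and those of THY1 and NLRP7 did not. No group had more than 2 libraries, so single libraries could not be tested for standing apart from their group.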

How the results depend on the processing

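No result with a call reversed under any alternative run, and among the single-gene values with DESeq2, DESeq2's size factors in edgeR, no filter on low counts or the replicate block, 1 lost and 28 gained a call. The counts of members called were within 1.5 times the main count under these alternatives, except as follows. Without the filter 3 members passed for ActA in pre-ME of cjPSCM origin, 5 in somatic cells + ActA and 6 in somatic cells − ActA against cjiPSCs in TESR, in place of 1, 3 and 3, and 2 passed for the difference of the ActA effect between media, in place of 0. DESeq2 also gave 2 for the last of these, KLF5 and THY1. The cause of these changes was not tested. With 1 library left out the number of members called was 2 to 4 from TESR cjiPSCs to pre-ME + ActA, 4 to 7 from cjPSCM cjiPSCs to pre-ME + ActA, 3 to 5 in cjPGCLCs + ActA against cjiPSCs in TESR, 0 to 1 for ActA in cjPSCM pre-ME, 1 to 2 for ActA in TESR pre-ME, and 1 to 4 for the interaction of medium and stage − ActA. In these fits a lone library is assumed to vary like the other groups. Of the single-gene values 55 lost and 16 gained a call. With a pseudocount of 10, 17 of the 27 nearest genes were the same.

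For replicates with the same number, the correlation of their deviations from the group means was -0.19 to 0.23 over 45 pairs of conditions, with a median of 0.02 and 8 pairs over 0.1. It was 0.227 and 0.222 between pre-ME + ActA and − ActA of cjPSCM and TESR origin. Between cjPGCLCs and somatic cells it was 0.111 with ActA and 0.027 without it. The labels do not say whether such libraries shared a culture. With the replicate number as a block, 1 member passed for the difference of the ActA effect between media, in place of 0, and no other count of calls changed. For cjPSCM cjiPSCs and pre-ME, whose numbers had negative correlations, a crossed pairing, chosen after seeing the data, gave 7 calls with ActA and 5 without it.

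Depth limits BTK and ELF3, each with 4 libraries at 3 counts or fewer, and 2 libraries per condition limit every test.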
